A study of Rattus norvegicus with 28 samples.

Results

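A set of 161 genes in INS-1 cells was low after 8 h of forskolin (FSK) and back near the untreated level by 16 h. INS-1 cells derive from a rat insulinoma and release insulin. The set was chosen by the values of the 6 untreated (CON), 8 h FSK and 16 h FSK libraries of WT cells. The mean of log2(TPM + 1) at 8 h had to be at least 1 below that of CON, and the mean at 16 h had to be less than 0.4 below it. TPM gives the level of a transcript after scaling for its length and for library size. The 161 genes are 1.82% of the 8833 genes that averaged 5 TPM or more, out of 17455 gene symbols in the table. A further 1283 genes were as low at 8 h in WT and stayed at or under the 16 h limit, so the members were 161 of 1444 genes that met the 8 h limit. Averaged over the libraries of 1 genotype, 4 members (Agrn, Arhgef2, Coro6 and Plppr5) were under 5 TPM in WT and 3 (L1cam, Ptpn21 and RT1-M3-1) in Med14 S983A, so these 7 passed the minimum through the other genotype. The levels of the members in those 6 libraries are therefore a description, and so is every contrast that shares them.

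RNA was measured in 28 libraries, 2 for each of 14 groups. The cells were WT or carried S983A, a change of serine to alanine knocked into Med14 by CRISPR, where Med14 is the backbone of the Mediator complex, and the study made its knock-in lines from single sorted cells. The paper states that its experiments used 2 such lines, made independently, and the labels do not say which of them, or whether both, were sequenced. A difference between the genotypes therefore cannot be told apart from one between clones. Each genotype was left untreated or exposed to 10 nM exendin-4 (Ex-4) or 10 µM FSK for 1, 8 or 16 h, with a single CON group per genotype and none for each time. All cells were in serum-free medium before treatment. The study's methods call the replicates biological, and neither they nor the labels say whether the 2 libraries of a group came from separate cultures, so the tests measure the spread between these libraries.

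FSK activates adenylyl cyclase and raises cAMP directly, while Ex-4 raises it through the GLP-1 receptor on beta cells. cAMP activates protein kinase A, which phosphorylates CREB, and CREB switches on genes through the cAMP response element, TGACGTCA. In beta cells this pathway is known for its effect on insulin secretion, cell survival and identity genes, and it is damped by feedback genes that it induces. Mediator carries signals from such factors to RNA polymerase II.

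The members with the largest WT fall at 8 h are shown first by the 250 bases upstream of their start, since the members share a course. The sequences are from RefSeq (GRCr8) and run 5′ to 3′ on the strand of the gene. Capitals mark matches on either strand to the cAMP response element TGACGTCA and its shorter form TGACG, the CCAAT box, the GC box GGGCGG, the E-box CACGTG, the TATA box TATAAA, the AP-1 element TGANTCA and the ETS core CCGGAAG, and a match is a description of letters and not a binding site. The stretches are chr12:25050411-25050660 (minus strand) for Ache, chr3:135118654-135118903 (minus strand) for Fahd2a, chr6:94476220-94476469 (minus strand) for Pygl and chr2:177972720-177972969 (plus strand) for Rab13.
Ache: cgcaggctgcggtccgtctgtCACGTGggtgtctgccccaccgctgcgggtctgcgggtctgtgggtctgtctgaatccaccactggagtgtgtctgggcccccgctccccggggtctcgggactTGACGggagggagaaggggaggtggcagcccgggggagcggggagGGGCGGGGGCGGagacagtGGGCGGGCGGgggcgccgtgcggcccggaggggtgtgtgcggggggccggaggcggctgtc
Fahd2a: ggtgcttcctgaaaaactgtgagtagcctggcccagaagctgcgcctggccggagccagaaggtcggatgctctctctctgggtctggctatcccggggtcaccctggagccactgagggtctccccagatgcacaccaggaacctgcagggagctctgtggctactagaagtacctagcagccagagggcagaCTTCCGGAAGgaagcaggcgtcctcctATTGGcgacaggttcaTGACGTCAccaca
Pygl: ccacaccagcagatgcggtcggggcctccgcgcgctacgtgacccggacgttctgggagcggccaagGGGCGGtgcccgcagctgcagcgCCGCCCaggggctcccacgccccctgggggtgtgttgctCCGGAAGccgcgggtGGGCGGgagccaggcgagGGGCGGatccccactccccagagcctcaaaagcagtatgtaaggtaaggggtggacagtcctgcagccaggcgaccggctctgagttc
Rab13: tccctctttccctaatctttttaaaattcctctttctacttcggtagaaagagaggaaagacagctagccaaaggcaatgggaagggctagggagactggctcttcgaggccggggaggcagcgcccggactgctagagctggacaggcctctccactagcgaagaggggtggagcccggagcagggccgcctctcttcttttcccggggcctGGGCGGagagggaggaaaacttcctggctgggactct

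The Fahd2a stretch holds a full TGACGTCA 13 bases before the start, beside a CCAAT match on the opposite strand. Ache holds a lone TGACG, 4 overlapping or neighbouring GGGCGG matches and a CACGTG, Pygl holds 4 GGGCGG matches and a CCGGAAG, and Rab13 holds a single GGGCGG. Of the 161 members, 132 have a stretch in the reference. Fahd2a was the 1 member with TGACGTCA, 0.758% of 132, against 3.11% of the 8201 stretches of tested genes and 1.78% of the 1014 stretches of the genes still low at 16 h. TGACG, which every TGACGTCA contains, was in 20.5% of members, 29.9% of tested genes and 19% of genes still low. The shares were closer for CCAAT (35.6% of members and 35.7% of tested genes), GGGCGG (60.6% and 61.2%), CACGTG (9.85% and 8.41%), TATAAA (4.55% and 5.85%), TGANTCA (3.03% and 4.01%) and CCGGAAG (15.9% and 16.3%).

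Depth ran from 42551133 to 57231981 fragments per library, and a single deeper library, the second replicate of the 8 h FSK group of Med14 S983A, reached 92635979. A substitution in Med14 cannot be checked from the level of its transcript. Of 9 beta cell markers in the table all passed 1 TPM, led by Ins1 at a mean of 46566 TPM, and the summed level of that list was 50572 to 89050 TPM. Among 6 markers of other endocrine cells only Gcg passed 1 TPM, and the other 5 stayed at or under 0.227 TPM. Gcg was 165 to 169 TPM in WT CON, 1225 to 1345 TPM at 8 h of FSK and 761 to 809 TPM at 16 h, and in Med14 S983A it went from 6.09 to 6.56 TPM in CON to 102 to 110 TPM at 8 h, which was not tested for a part in what follows. The 6 acinar markers summed to 0.483 to 14.8 TPM, with Prss1, Amy2a3 and Pnlip at 0 in all libraries, the ductal list to 0.684 to 2.82 TPM, the fibroblast list to 0.919 to 4.07 TPM, and the endothelial and immune lists to at most 1.77 TPM.

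The level of genes as a whole also moved at 8 h of FSK. The median log2 change of all 10275 tested genes against CON was -0.34 in WT and -0.28 in Med14 S983A cells at 8 h. At 16 h it was -0.20 and -0.10. The 10 most abundant transcripts took 7.36% to 7.45% of TPM in WT CON, 11% to 11.4% at 8 h and 10.4% to 10.6% at 16 h. In Med14 S983A they took 10.7% to 11.8% in CON, 11.3% to 11.6% at 8 h and 7.78% to 7.82% at 16 h. Whether this share had a part in the change of the median was not tested. Which genes are members depends on the scaling. With each library centred on its median, 79 genes met the rule, and 27 of the 161 members (16.8%) were among them. With scaling on the ERCC spike-ins, 484 genes met it, including 148 members (91.9%). The members in this text are those of the TPM as deposited, and where a scaling changes a count it is given beside the count.

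In WT the median member changed by -0.13 on the log2 scale at 1 h of FSK, by -1.20 at 8 h, which is 0.435 of the CON level, and by -0.24 at 16 h. The 1283 genes still low changed by -1.42 at 8 h and -1.04 at 16 h. The 8 h values of the members ran from -1.84 for Ache, the esterase that breaks down acetylcholine, to -1.002 for Arrdc3, an arrestin-domain protein. At 16 h they ran from -0.399 for Foxred2 to 0.97 for Rab26, a small GTPase of secretory granules, and 27 of 161 were above CON. Chosen on replicate 1 alone, 142 genes met the rule, and in replicate 2 all 142 were lower at 8 h than CON and 100 met the whole rule. Chosen on replicate 2 alone, 201 genes did, and in replicate 1 all 201 were lower at 8 h and 100 met the whole rule.

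**Figure D1:**
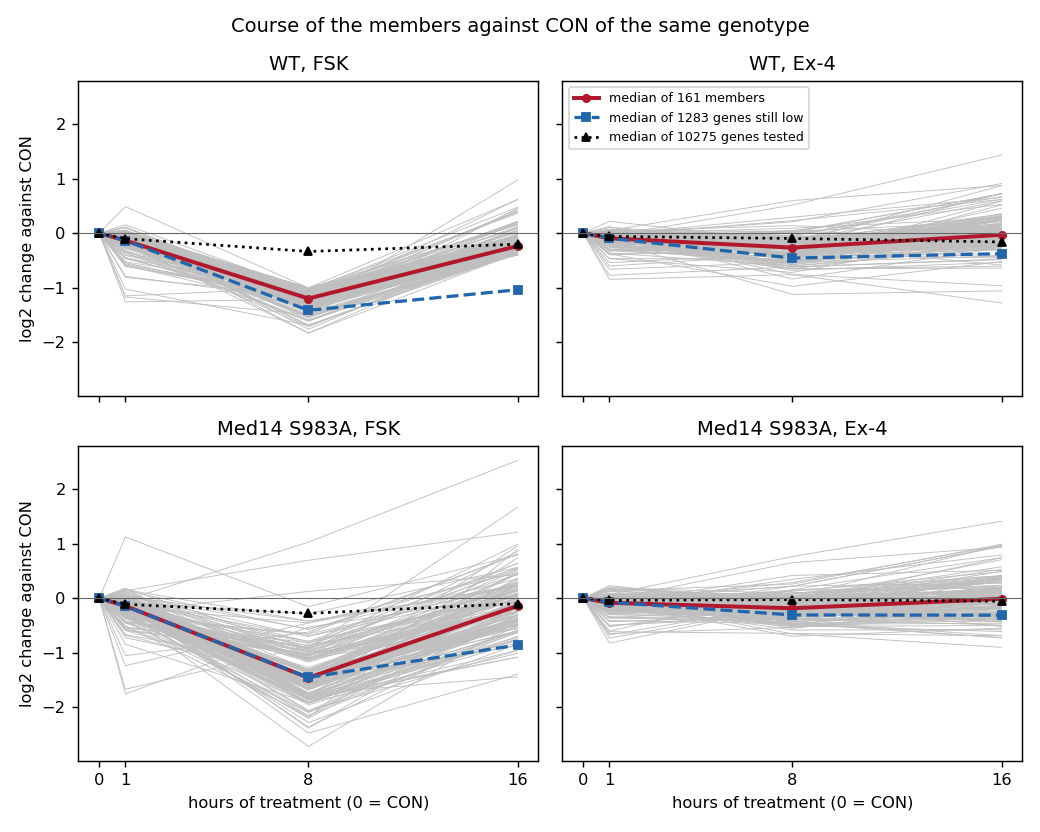
Each panel plots the log2 change of TPM + 1 against CON of the same genotype (y axis) by hours of treatment (x axis), with a grey line for each of the 161 members and the medians of the members (circles), of the 1283 genes still low at 16 h in WT (squares) and of the 10275 genes tested (triangles). The members' median returns to -0.24 in WT and -0.14 in Med14 S983A at 16 h of FSK, while the squares stay at -1.04 and -0.86. In the Ex-4 panels the members' median stays between -0.27 and -0.01.

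Ache had 32.6 and 30.2 TPM in WT CON, 7.67 and 8.46 TPM at 8 h of FSK and 25 and 23.5 TPM at 16 h. Fahd2a had 16 and 15 TPM in CON, 3.61 and 3.65 TPM at 8 h and 14 and 13.3 TPM at 16 h. Pygl, the liver form of glycogen phosphorylase, had 9.64 and 10.4 TPM, then 2.43 and 2.06 TPM and 8.98 and 9.05 TPM. In all 3 genes both 8 h libraries lay far below both CON libraries, and both 16 h libraries lay between them. Rab13, a GTPase of junctional trafficking, had 16 and 17.1 TPM in CON and 4.65 and 4.04 TPM at 8 h, and Ttc38 had 7.36 and 7.27 TPM and 1.60 and 1.52 TPM. Zc3h8, a zinc finger protein of the little elongation complex, had 20.5 and 19.1 TPM in CON, 9.40 and 8.98 TPM already at 1 h and 5.28 and 5.59 TPM at 8 h. Fam189b (log2 change -1.69) and Vopp1 (-1.62) completed the 8 largest WT falls.

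The highest 16 h values were those of genes that overshot CON. Rab26 (chr10:13894271-13897488, minus strand, rn6) had 11.8 and 13.5 TPM in WT CON, 4.89 and 3.87 TPM at 8 h and 25.6 and 25.9 TPM at 16 h of FSK, so that the 16 h libraries lay above the CON libraries. Shisa4, a membrane adaptor, had 53.4 and 52.9 TPM, then 21.8 and 21.5 TPM and 77.2 and 87.6 TPM. Cited2, a co-regulator that binds CBP and p300, had 50.2 and 50.9 TPM in CON, was at 69.1 and 73.6 TPM at 1 h, and then had 23.4 and 26 TPM at 8 h and 74.9 and 81.2 TPM at 16 h. In St3gal1, a sialyltransferase, the CON libraries differed (62.3 and 49.7 TPM) and the 16 h libraries held 77.1 and 78.5 TPM. Arhgef2, a microtubule-bound activator of RhoA, went from 5.96 and 5.70 TPM to 1.22 and 1.59 TPM and 7.61 and 9.21 TPM. All of these are values the rule used, or share its libraries, and carry no test.

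The limits of the rule cut through a continuum. At the 8 h limit the nearest members were Arrdc3 and Rsph1, at -1.002 and -1.003, and the nearest genes outside were Pdzd11 (-0.9997) and Mapk9 (-0.9953). At the 16 h limit Foxred2 (-0.399) and Nek4 (-0.399) were inside and Lnx1 (-0.402) and Glt8d1 (-0.402) outside. Within 0.1 of the limits lay 47 members at 8 h and 61 at 16 h.

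**Figure D2:**
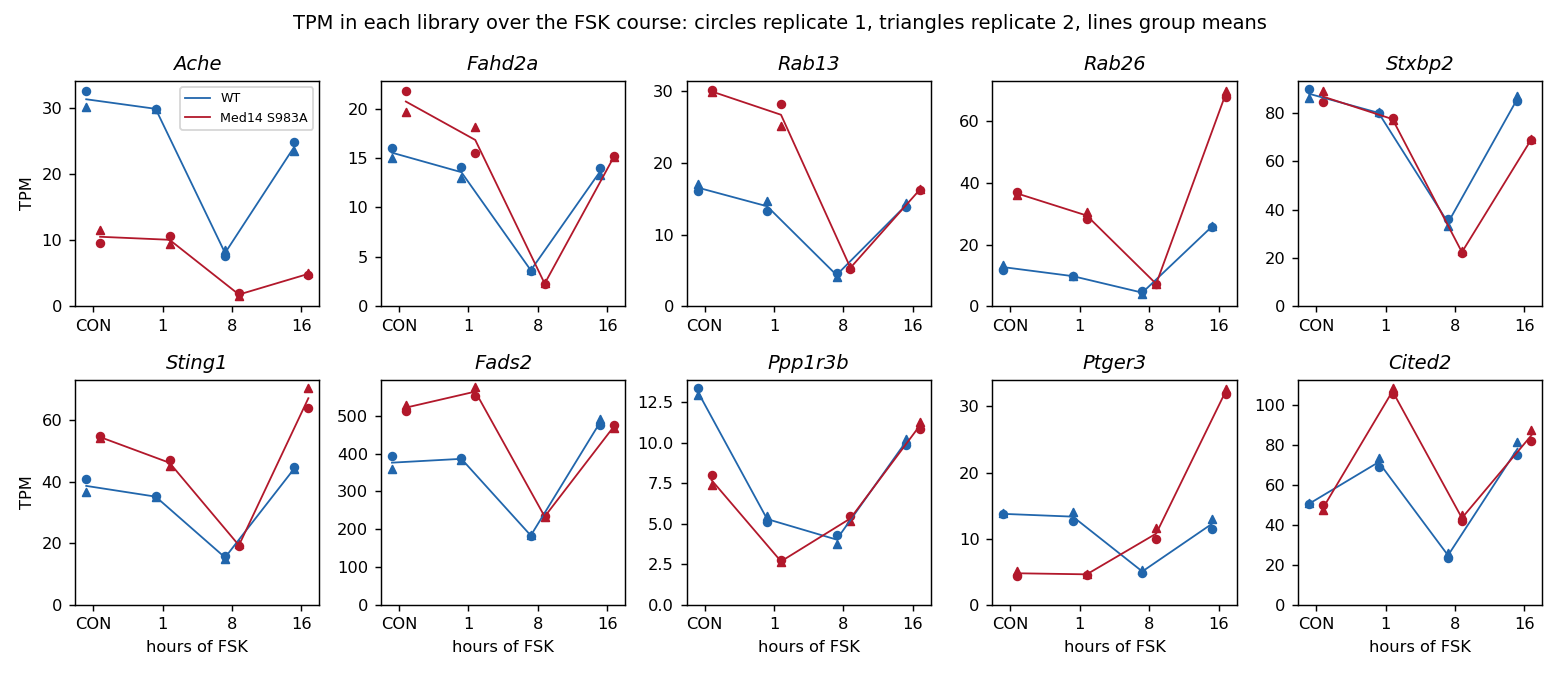
Each panel plots the TPM of 1 member (y axis) in every library of CON and of 1, 8 and 16 h of FSK (x axis), in WT (blue) and Med14 S983A (red), with circles for replicate 1, triangles for replicate 2 and lines through the group means. At 8 h both genotypes are low in Ache, Fahd2a, Rab13, Rab26, Stxbp2, Sting1 and Fads2, and Ppp1r3b and Cited2 are plotted beside them. In Ptger3 the Med14 S983A libraries are at 9.88 and 11.7 TPM, above their CON.

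Whether the members also fell in cells that the rule did not use was tested in Med14 S983A. At 8 h of FSK, 149 of 161 members (92.5%) were lower than in Med14 S983A CON, against a background of 34.5% of all 10275 tested genes called lower. A gene was called at a limma adjusted p under 0.05 (Benjamini-Hochberg) and a fold change over 1.5. The median member changed by -1.46 on the log2 scale against -0.28 for all tested genes. The genes still low at 16 h in WT had similar values, with 1191 of 1283 (92.8%) called lower and a median of -1.46. Ptger3 and Mmp15 (1.24% of members) were called higher, against 11.6% of all tested genes, and 10 members were not called. The count called lower was 133 with median centring, 152 with ERCC scaling and 143 by edgeR on recovered fragments, and without the deepest library it was 150.

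The largest fall was that of Fahd2a, from 21.8 and 19.6 TPM in Med14 S983A CON to 2.23 and 2.34 TPM at 8 h (log2 difference -2.72, SE 0.079, limma adjusted p = 1.47e-20). Pold4, the smallest subunit of DNA polymerase delta, fell from 60.7 and 60.4 TPM to 10.7 and 9.42 TPM (log2 difference -2.48, SE 0.070, limma adjusted p = 7.84e-21). Acd (chr19:37665295-37667987, minus strand, rn6), a telomere protein of shelterin, fell from 69.4 and 71.2 TPM to 12 and 13.3 TPM (log2 difference -2.39, SE 0.073, limma adjusted p = 4.10e-20). In WT the 8 h libraries of Acd were at 38 and 29.6 TPM. Fam189b fell from 50.3 and 54.1 TPM to 9.90 and 8.72 TPM (log2 difference -2.37, SE 0.056, limma adjusted p = 3.06e-22). Rab13 (-2.29) and Fbxl6, an F-box protein (-2.21), were the next largest. In all 6 genes both 8 h libraries were far below both CON libraries.

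A few members rose or changed little at 8 h of FSK in Med14 S983A. Ptger3 (chr2:263895205-263978968, plus strand, rn6), the prostaglandin E receptor that lowers cAMP through an inhibitory G protein, had 4.36 and 5.18 TPM in Med14 S983A CON and 9.88 and 11.7 TPM at 8 h of FSK, a rise (log2 difference 1.03, SE 0.085, limma adjusted p = 3.03e-11). In WT the same gene had 13.7 and 13.8 TPM in CON and 4.79 and 5.29 TPM at 8 h. Mmp15, a membrane-bound metalloproteinase, rose from 6.93 and 6.78 TPM to 11.9 and 11.5 TPM (log2 difference 0.70, SE 0.058, limma adjusted p = 3.83e-11), while WT went from 16.7 and 16.1 TPM to 6.15 and 6.04 TPM. Hist1h2bq, a histone gene whose reads may be shared with near-identical copies, had 29.2 and 31.9 TPM in CON and 32.9 and 33.9 TPM at 8 h, and Cited2 had 49.7 and 47.2 TPM and 41.7 and 45.1 TPM. Neither was called, and the log2 difference of Cited2 was -0.16 on the TPM as deposited but 0.18 after median centring and 0.12 by edgeR. The genotype difference in the dip itself uses the libraries that chose the members, so it was not tested.

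**Figure D3:**
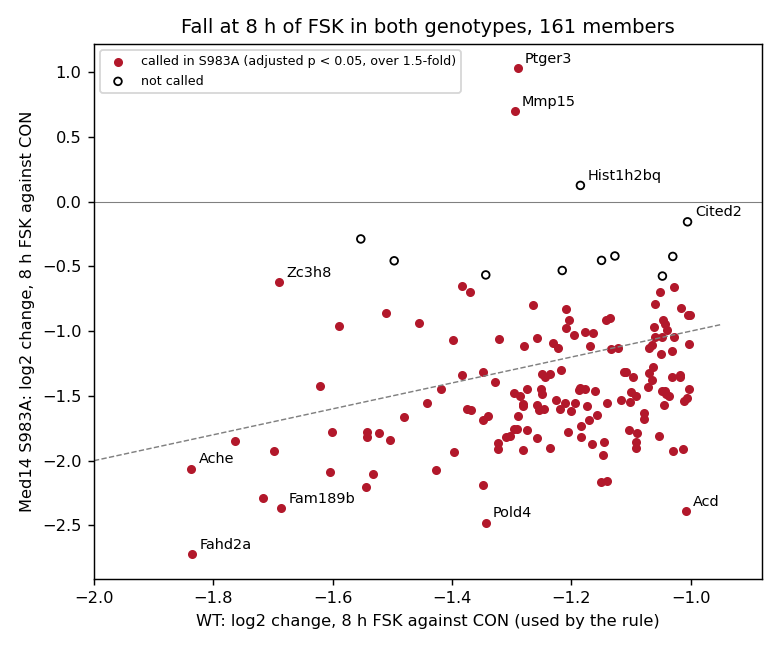
Each point is 1 of the 161 members, with the WT log2 change of 8 h FSK against CON on the x axis (used by the rule) and the Med14 S983A change on the y axis. Filled points were called in Med14 S983A, open points were not, and the dashed line marks equal values. Most points lie under the line, and Ptger3 (1.03) and Mmp15 (0.70) lie above 0.

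On the same scale 112 of 161 members were lower against CON in Med14 S983A than in WT, with a median difference of -0.25. For the genes still low it was 642 of 1283, with a median at 0 to 2 decimals. For all tested genes it was 4647 of 10275, with a median of 0.04. The limit on the WT value bounds the members on 1 side, so this is a description.

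From 8 to 16 h of FSK the members came back in Med14 S983A too. Of 161, 157 (97.5%) were called higher at 16 h than at 8 h, against a background of 21.5% of tested genes called higher. All 161 changes were above 0, from 0.30 for Hist1h2bq to 3.08 for Rab26, with a median of 1.25, against 0.15 for all tested genes. Of the 1283 genes still low in WT, 614 (47.9%) were called higher, with a median of 0.56. The 4 members not called were Hist1h2bq, Dpp6, Tmem106a and Mmp15. This contrast and that of 8 h against CON share the 8 h libraries, and 147 members were called in both. The count called higher from 8 to 16 h was 147 with median centring, 161 with ERCC scaling and 152 by edgeR, and 155 without the deepest library.

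Rab26 rose from 7.31 and 7.14 TPM at 8 h to 67.8 and 69.8 TPM at 16 h (log2 difference 3.08, SE 0.074, limma adjusted p = 5.36e-21), above its 37 and 36.1 TPM in CON. Plppr5, a phospholipid phosphatase-related membrane protein, rose from 4.81 and 5.54 TPM to 34.7 and 37.3 TPM (log2 difference 2.59, SE 0.069, limma adjusted p = 3.43e-20). Plppr5 averaged 4.43 TPM over the WT libraries and 17.5 TPM over those of Med14 S983A. It is therefore a member only through its level in Med14 S983A, the genotype of this rise. Tmem150a, a regulator of phosphoinositide synthesis at the plasma membrane, rose from 11.2 and 10.6 TPM to 65.3 and 68.2 TPM (log2 difference 2.51, SE 0.058, limma adjusted p = 2.98e-21). Its span overlaps that of Rnf181 on the other strand. Nthl1, a glycosylase of base excision repair, rose from 2.96 and 3.51 TPM to 21.1 and 22.3 TPM (log2 difference 2.42, SE 0.094, limma adjusted p = 3.04e-17). In each of these 4 genes the 16 h libraries were above the CON libraries as well.

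**Figure D4:**
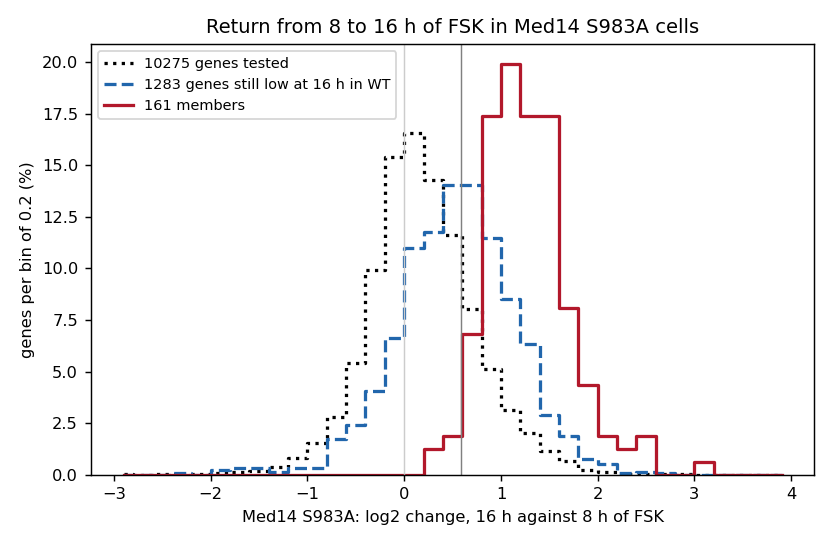
The x axis is the log2 change of 16 h against 8 h of FSK in Med14 S983A, in bins of 0.2, and the y axis is the percent of genes per bin, for the 161 members (solid), the 1283 genes still low at 16 h in WT (dashed) and the 10275 genes tested (dotted). Vertical lines mark 0 and a 1.5-fold rise. No member lies under 0, and the medians are 1.25, 0.56 and 0.15.

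At 16 h of FSK against CON, most members of Med14 S983A were near the untreated level, as were most tested genes. The median log2 change was -0.14 for the members and -0.10 for all tested genes. Of 161, 25 (15.5%) were called lower, against 21.1% of tested genes called lower, and 13 (8.07%) were called higher, against 12.2% called higher. Of the genes still low in WT, 894 of 1283 (69.7%) were called lower. Dpp6, a subunit of potassium channel complexes, stayed lowest (-1.45, 85.2 and 78.9 TPM in CON and 28.6 and 30.4 TPM at 16 h), followed by Pold4 (-1.40), and Ache had 9.55 and 11.5 TPM in CON and 4.74 and 5.06 TPM at 16 h (-0.96). Ptger3 was highest, at 31.9 and 32.6 TPM (log2 difference 2.53, SE 0.085, limma adjusted p = 5.68e-19). The split of lower and higher members differed by scaling, with 15 and 23 with median centring, 10 and 26 with ERCC scaling, and 20 and 19 by edgeR. On the TPM as deposited, 123 members were not called in either direction.

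The same 2 limits applied to the Med14 S983A libraries found 374 genes, of which 80 were members. These are 49.7% of the 161 members and 21.4% of the 374 genes, and the 374 are 4.23% of the 8833 genes of at least 5 TPM.

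At 1 h of FSK few members had changed. In Med14 S983A, 10 of 161 (6.21%) were called lower than CON, against 7.2% of tested genes, and Cited2 alone (0.621%) was called higher, against 3.19%. Those 10 included Arrdc3, from 17.5 and 16.3 TPM to 4.67 and 4.55 TPM (log2 difference -1.67, SE 0.089, limma adjusted p = 3.32e-14), Ppp1r3b, which brings a phosphatase to glycogen, from 7.99 and 7.41 TPM to 2.74 and 2.62 TPM (log2 difference -1.24, SE 0.068, limma adjusted p = 6.10e-14), and Zc3h8, from 22.3 and 20.5 TPM to 9.57 and 9.96 TPM (log2 difference -1.06, SE 0.064, limma adjusted p = 4.47e-13). Bbc3, which encodes the pro-apoptotic protein PUMA and is named here after its values were seen, had the largest 1 h fall, from 12.1 and 16.7 TPM to 3.78 and 3.22 TPM (-1.76). Cited2 rose from 49.7 and 47.2 TPM to 105 and 108 TPM (log2 difference 1.12, SE 0.068, limma adjusted p = 5.66e-13). In Med14 S983A the low point differed between members. Bbc3 (10.4 and 8.73 TPM at 8 h), Arrdc3 (9.09 and 8.42 TPM), Ppp1r3b (5.48 and 5.19 TPM) and Zc3h8 (13.4 and 13.7 TPM) were lower at 1 h than at 8 h in both libraries, whereas Ache, at 10.7 and 9.47 TPM at 1 h, overlapped its CON libraries. In WT, by contrast, Zc3h8 and Ppp1r3b were lower at 8 h than at 1 h in both libraries. In Med14 S983A the count called lower at 1 h was 5 with median centring and 22 with ERCC scaling, against 425 and 1536 of the 10275 tested genes.

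Ex-4 gave a shallower course. In WT the median member was at -0.09 at 1 h, -0.27 at 8 h and -0.03 at 16 h against CON, and in Med14 S983A at -0.08, -0.19 and -0.01. The medians of all tested genes were -0.06, -0.10 and -0.16 in WT and -0.04, -0.03 and -0.06 in Med14 S983A. The WT values share WT CON with the choice of the members and are a description. From 1 to 8 h of Ex-4 in WT, 8 of 161 members were called lower, against 5.27% of tested genes, so the share of 4.97% was near the background. The genes still low after FSK had 270 of 1283 (21%) called lower. In Med14 S983A at 8 h of Ex-4 against CON, 3 members (Pold4, Ttc38 and Ccng2, 1.86%) were called lower, against 3.09% of tested genes. St3gal1 and Plppr5 (1.24%) were called higher, against 3.21%, and Plppr5 is a member through its level in Med14 S983A. Without replicate 2 of Med14 S983A CON the lower count was 5, and without replicate 1 of Med14 S983A at 8 h of Ex-4 it was 6.

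The 4 largest Ex-4 falls in WT were in Arhgef2, from 5.45 and 4.85 TPM at 1 h to 2.22 and 2.05 TPM at 8 h (log2 difference -0.97, SE 0.083, limma adjusted p = 4.86e-10), Sncb, which encodes beta-synuclein, from 622 and 587 TPM to 339 and 339.7 TPM (log2 difference -0.83, SE 0.049, limma adjusted p = 5.22e-13), Mical2, an actin-oxidising enzyme (-0.73), and Hs6st2, a heparan sulfate sulfotransferase (-0.70). Sncb was the most abundant of them and had 499 and 514 TPM at 16 h, while Arhgef2 had 2.12 and 2.43 TPM and Hs6st2 6.11 and 6.79 TPM. With ERCC scaling 3 members were called lower and 2 higher, and with median centring 5 and 2.

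The rise from 8 to 16 h was seen with Ex-4 as well. In WT, 24 of 161 members (14.9%) were called higher at 16 h than at 8 h of Ex-4, against 2.08% of tested genes, with a median of 0.27 against -0.06 for all tested genes. In Med14 S983A, 14 (8.7%) were called higher, against 1.25%, with medians of 0.16 and -0.03. The genes still low had 45 of 1283 (3.51%) and 22 of 1283 (1.71%). Tmem150a had 19.5 and 21.8 TPM at 8 h and 43.5 and 43.9 TPM at 16 h of Ex-4 in WT (log2 difference 1.05, SE 0.058, limma adjusted p = 3.12e-13). Cited2 had 38.2 and 34.9 TPM and 74.7 and 78.4 TPM (log2 difference 1.05, SE 0.068, limma adjusted p = 5.82e-12), and Rab26 9.11 and 8.02 TPM and 19.2 and 17.9 TPM (log2 difference 1.03, SE 0.074, limma adjusted p = 3.30e-11). Ache had 28.1 and 24.7 TPM and 51.3 and 54 TPM (log2 difference 0.97, SE 0.10, limma adjusted p = 1.92e-08), and its 16 h libraries were above both CON libraries. The WT count was 32 with median centring, 52 with ERCC scaling and 37 by edgeR, and the Med14 S983A count was 16, 7 and 17.

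**Figure D5:**
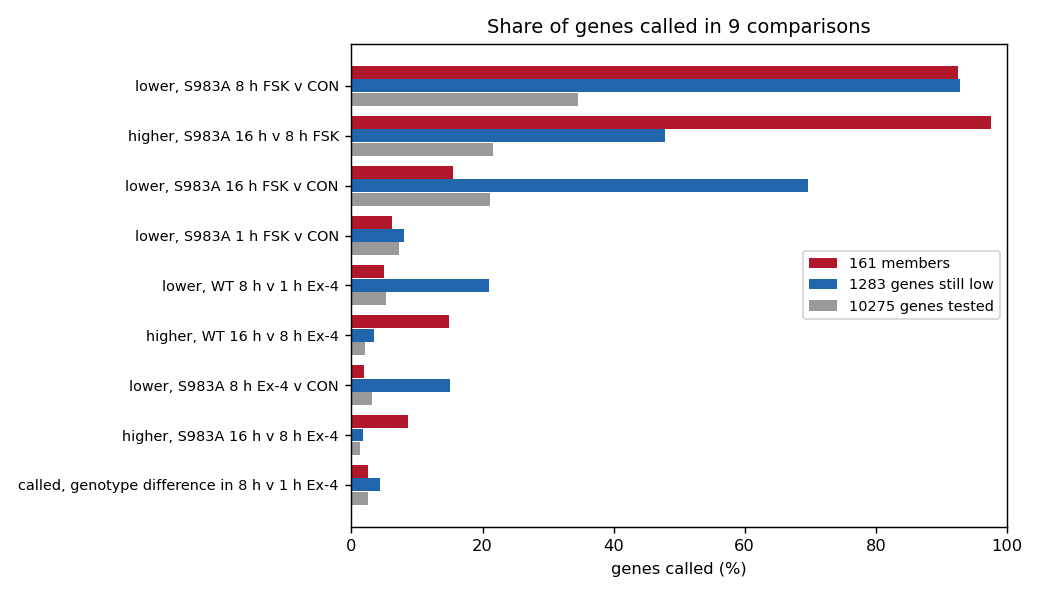
Bars give the percent of genes called (x axis, from 0) in each of 9 comparisons (y axis) for the 161 members, the 1283 genes still low at 16 h in WT and the 10275 genes tested, by limma at an adjusted p under 0.05 and over 1.5-fold. The members' bar is near that of the genes still low for 8 h of FSK (92.5% and 92.8%) and above it for 16 h against 8 h of FSK (97.5% and 47.9%).

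Whether the Ex-4 course differed by genotype was tested with the change from 1 to 8 h, Med14 S983A minus WT, in libraries that entered the rule only through the mean over all libraries. For 4 of 161 members the difference was called, against 2.5% of tested genes, and the share of 2.48% was near the background. Ppp1r3b (chr16:60415221-60427474, minus strand, rn6) had 8.74 and 9.78 TPM at 1 h and 7.67 and 7.52 TPM at 8 h in WT, and 4.82 and 4.61 TPM and 8.89 and 8.49 TPM in Med14 S983A (log2 difference 1.02, SE 0.096, limma adjusted p = 4.80e-08). Arhgef2 (chr2:187993798-188021373, plus strand, rn6) fell in WT, as above, and had 20.2 and 20.3 TPM and 20.6 and 20.3 TPM in Med14 S983A (log2 difference 0.99, SE 0.12, limma adjusted p = 1.57e-06). Arhgef2 averaged 4.31 TPM over the WT libraries and 22.97 TPM over those of Med14 S983A, so it is a member only through its level in Med14 S983A. Ptger3 had 13.6 and 12.6 TPM and 8.38 and 8.34 TPM in WT, and 4.18 and 4.86 TPM and 5.70 and 6.37 TPM in Med14 S983A (log2 difference 0.94, SE 0.12, limma adjusted p = 4.40e-06). The value of Hist1h2bq was 0.60 and was not called with median centring or ERCC scaling.

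The lists of pathway genes placed few members, and the members are 161 of the 8833 genes of at least 5 TPM. Their counts in Med14 S983A stand beside 34.5% of all tested genes called lower and 11.6% higher at 8 h of FSK, and 21.5% called higher and 6.4% lower from 8 to 16 h. The primary cilium list, whose genes build the sensory antenna of the cell, held most, with 5 members among 37 genes of at least 5 TPM, and 12 more were still low at 16 h. Tctn1, of the transition zone at the base of the cilium, had 15.4 and 17 TPM in Med14 S983A CON, 2.86 and 3.23 TPM at 8 h and 9.59 and 9.60 TPM at 16 h of FSK (-2.09 at 8 h). Dync2li1, a chain of the dynein that moves cargo back along the cilium, had 40.04 and 41.5 TPM, 12.6 and 12.9 TPM and 48.7 and 47.6 TPM (-1.60). The other members were Tmem231, Ift43 and Tmem216. Of the 38 tested genes of the list, 30 (78.9%) were called lower and 2 higher at 8 h of FSK in Med14 S983A, and 18 (47.4%) were called higher and 3 lower from 8 to 16 h.

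The interferon response list held 2 members of 25. Sting1, the adaptor that senses cyclic dinucleotides, had 54.9 and 54.3 TPM in Med14 S983A CON, 19.1 and 19.6 TPM at 8 h and 64 and 70.5 TPM at 16 h of FSK. With Ex-4 it had 54.1 and 57.2 TPM at 8 h and 104 and 108 TPM at 16 h in WT (log2 difference 0.92, SE 0.057, limma adjusted p = 1.88e-12). Ube2l6, the conjugating enzyme of ISG15, had 65.7 and 67.7 TPM, 22.7 and 22.7 TPM and 52.5 and 50.5 TPM over the FSK course of Med14 S983A. Of 33 tested genes of that list, 23 (69.7%) were called lower at 8 h of FSK in Med14 S983A, and 17 (51.5%) were called higher from 8 to 16 h.

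Single members came from 4 lists. Pold4 was the 1 member of 52 genes of DNA replication and repair, of whose 56 tested genes 36 (64.3%) were called lower at 8 h of FSK in Med14 S983A, while from 8 to 16 h 11 (19.6%) were called higher, near the share of all tested genes, and 7 lower. Pex6, an ATPase of peroxisome assembly, was the 1 member of 45 genes of fatty acid oxidation and the peroxisome (27 of 46, 58.7%, called lower at 8 h, and 20, 43.5%, higher and 1 lower from 8 to 16 h), and had 17.6 and 17.5 TPM, 5.38 and 5.24 TPM and 16.1 and 16.4 TPM in Med14 S983A CON and at 8 and 16 h of FSK. Fads2, a desaturase of polyunsaturated fatty acid synthesis, was the 1 member of 39 genes of cholesterol and fatty acid synthesis. It had 513 and 529.8 TPM, 235 and 232 TPM and 477 and 468 TPM (log2 difference -1.16, SE 0.048, limma adjusted p = 1.90e-17), whereas 17 of the 41 tested genes of that list (41.5%) were called higher and 9 (22%) lower at 8 h. The span of the Fads2 transcript in the table overlaps 5 other genes, 2 of them on the same strand. Cited2 was the 1 member of 35 immediate early and cAMP feedback genes, of whose 36 tested genes 28 (77.8%) were called higher and 3 lower at 8 h of FSK in Med14 S983A.

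No member came from mitosis (37 genes of at least 5 TPM), the circadian clock (16), mitochondrial translation (26), beta cell identity and secretion (43) or autophagy and the lysosome (44). With 161 members among 8833 genes, lists of this size would hold few or none. Of 45 tested beta cell genes, 24 (53.3%) were called lower and 4 higher at 8 h of FSK in Med14 S983A, and from 8 to 16 h 15 (33.3%) were called lower and 3 higher. Of 37 tested mitosis genes, 10 (27%) were called lower and 1 higher at 8 h, and 19 (51.4%) were called lower from 8 to 16 h. Of 27 tested mitochondrial translation genes, 17 (63%) were called lower and 0 higher at 8 h. From 8 to 16 h, 14 of them (51.9%) were called higher and 0 lower. Of 47 tested autophagy and lysosome genes, 20 (42.6%) were called lower and 4 higher at 8 h. From 8 to 16 h, 13 of these (27.7%) were called higher and 3 lower. Of 19 tested clock genes, 8 were called lower and 9 higher at 8 h, then 6 lower and 4 higher. Members outside the lists included genes of membrane fusion and growth signalling, which are named here after their values were seen. Stxbp2, which binds syntaxins in exocytosis, had 84.4 and 89.3 TPM in Med14 S983A CON, 22 and 22.7 TPM at 8 h and 68.8 and 69.5 TPM at 16 h (log2 difference -1.91, SE 0.041, limma adjusted p = 4.82e-23 at 8 h). Stx4, a syntaxin of the plasma membrane, had 91.7 and 83.7 TPM, 27.2 and 28.7 TPM and 103 and 105 TPM. Akt1, a kinase downstream of the insulin receptor, had 183 and 185 TPM, 72.1 and 70.8 TPM and 204 and 202 TPM.

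Features that the rule did not use were compared as descriptions. The members' genes were short, with a median span of 10762 bases in rn6 (quartiles 5816 and 27576), against 23230 bases for the genes still low and 20783 for all tested genes. The median exon length was 1651 bases, against 2247 and 2142. The median of the mean level was 21.7 TPM, against 22 and 27.3 TPM. The promoter stretches of the members had a median GC content of 59.2%, against 62% and 60.8%, and a median of 15 CG pairs, against 16.5 and 17. The spans of 7 members overlapped another gene with reads, 2 on the same strand.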

How the data were processed

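RNA-seq of INS-1 cells was analysed from the processed tables, with 2 libraries in each of 14 groups. With STAR 2.5.3a the authors mapped the reads to rn6 plus the spike-in sequences, and HOMER 4.11.1 gave TPM over RefSeq exons. These deposited TPM were not rescaled. The deposited counts hold the authors' counts of the 92 ERCC sequences. The Length column that the authors give beside the TPM is the exon length. For their own tests the authors used DESeq2 1.24.0 with spike-in size factors. The spike-ins went into equal masses of total RNA and give no measure of RNA per cell. Whether counting used strand is not given in the sources used here.

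Each of 17455 symbols was represented by its most abundant transcript over all libraries, out of 19131 transcripts. Group means of log2(TPM + 1) gave the 161 members. The members, the gene lists and the tests were chosen with earlier results of these data known. Limma 3.58.1 (lmFit, contrasts.fit, eBayes with trend) in R 4.3.3 was fitted to log2(TPM + 1) of the 10275 genes averaging 1 TPM or more, over all 28 libraries, with a mean per group, and p-values were two-sided and adjusted by Benjamini-Hochberg within a contrast. Calls needed an adjusted p under 0.05 and over 1.5-fold. SE is the moderated standard error. A fold on the log2(TPM + 1) scale understates the change of low genes. The study's test needs gene counts, so a log-scale test was used. Multiplying TPM by length and scaling to the ERCC counts recovered whole reads (2 to a fragment). Of these, 100% of 181332 values under 1000 fragments lay within 0.05 reads of a whole read beyond rounding, against 23.8% by chance, and edgeR 4.0.16 (TMM, quasi-likelihood) was run on them. In each group the 2 libraries differed by more than counting noise (chi-square over its degrees of freedom, 2.39 to 9.16).

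Alternatives were a pseudocount of 0.1, no filter, a mean of at least 5 TPM in the test or 1 or 10 TPM in the rule, median centring, ERCC scaling, a block on replicate numbers, only the libraries of the contrast, no fold minimum, edgeR and omission of each library in turn. Named genes were the 8 members with the largest WT fall at 8 h and the 5 highest at 16 h, the 6 largest called falls and 4 highest changes at 8 h of FSK in Med14 S983A, the 4 largest called rises from 8 to 16 h there, the 4 largest called Ex-4 falls in WT, at most 2 per gene list, the 2 nearest each limit on either side, and those called for the genotype difference. Promoter stretches were those of the first 4. The 4 highest changes include genes not called. Bbc3, Dpp6, Tmem106a, Ccng2, Card9, RT1-M3-1, Mrap2, Agrn, Coro6, L1cam, Ptpn21, Stxbp2, Stx4, Akt1 and the remaining cilium members were named after their values were seen.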

Additional observations from a re-analysis of the deposited data

Results flagged for a closer look

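For 4 members the change from 1 to 8 h of Ex-4 differed between the genotypes by a test of the difference itself, in limma at an adjusted p under 0.05 and over 1.5-fold. On the log2 scale, Med14 S983A minus WT, the difference was 1.02 for Ppp1r3b, 0.99 for Arhgef2, 0.94 for Ptger3 and 0.60 for Hist1h2bq. In all 4 the WT mean was lower at 8 h than at 1 h. Ppp1r3b had 4.82 and 4.61 TPM at 1 h and 8.89 and 8.49 TPM at 8 h in Med14 S983A, Arhgef2 20.2 and 20.3 TPM and 20.6 and 20.3 TPM, Ptger3 4.18 and 4.86 TPM and 5.70 and 6.37 TPM, and Hist1h2bq 27.7 and 26.2 TPM and 29.8 and 34.7 TPM. Arhgef2 averaged 4.31 TPM over the WT libraries, under the 5 TPM minimum, and is a member through its level in Med14 S983A (22.97 TPM). The reads of Hist1h2bq may be shared with other histone copies, and this gene was not called with median centring or ERCC scaling. The 4 genes are 2.48% of members, and 2.5% of all tested genes were called in this contrast. The share of members called was therefore near the background.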

How the results depend on the processing

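The falls of the members at 8 h of FSK in Med14 S983A (149) and their rise from 8 to 16 h (157) stayed within 1.5 times under each alternative run. The number of members was 79 with median centring and 484 with ERCC scaling. With median centring the members called lower were 15 at 16 h of FSK in Med14 S983A, 5 at 1 h of FSK there and 5 from 1 to 8 h of Ex-4 in WT. Of the 10275 tested genes, 1616, 425 and 461 were called lower in the same order. With ERCC scaling the member counts were 10, 22 and 3, against 1419, 1536 and 352 of the 10275 tested genes. The members called higher from 8 to 16 h of Ex-4 were then 52 in WT and 7 in Med14 S983A, against 495 and 84. By edgeR on recovered fragments the WT Ex-4 rise was called for 37 members, against 433 of the 10275 tested genes. With no fold minimum, 79 of 161 members were called lower at 16 h of FSK in Med14 S983A, against 4804 of 10275 tested genes. At 1 h of FSK there it was 84, against 4463. From 1 to 8 h of Ex-4 in WT 84 were called lower, against 3019, and at 8 h of Ex-4 in the mutant 85, against 2915. From 8 to 16 h of Ex-4 109 were called higher in WT, against 1940, and 83 in Med14 S983A, against 1803. For the genotype difference it was 30, against 1548. Cited2 changed sign at 8 h of FSK in Med14 S983A, to 0.18 with median centring and 0.12 by edgeR. The cause of these changes was not tested. Hs6st2 (-0.57 with ERCC scaling) and Hist1h2bq (0.54 with median centring, 0.49 with ERCC scaling) were no longer called. Leaving out 1 library at a time gave 150 to 190 members, and for the comparisons in the order of the text 149 to 150, 155 to 157, 21 to 25, 8 to 12, 6 to 10 (WT Ex-4 falls), 2 to 6 (Med14 S983A Ex-4 falls), 20 to 27 and 13 to 16 (Ex-4 rises), and 4 to 6 (genotype difference). The difference of replicate 1 minus replicate 2 was compared between groups over genes (91 pairs of groups). The median correlation was 0.003, from -0.28 to 0.28, and 17 pairs were over 0.1. With the replicate block the counts were 149, 157, 25, 10, 8, 24, 3, 14 and 4, as without it. Each group has 2 libraries, so a spread is measured on 14 residual degrees of freedom shared by all groups.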

Other observations

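The untreated level of 28 of 161 members (17.4%) differed between the genotypes by more than 1.5-fold, against 1999 of 10275 tested genes (19.5%), so the members were near the background. These values share WT CON with the choice of the members and carry no test. The median of Med14 S983A CON minus WT CON was 0.04 on the log2 scale, with 89 of 161 members above 0, and the range ran from -2.82 for RT1-M3-1, a class I antigen gene of a family with near-identical copies, to 2.63 for Card9, an adaptor of innate immune signalling. Rab26 had 11.8 and 13.5 TPM in WT CON and 37 and 36.1 TPM in Med14 S983A CON. Sncb had 602 and 618 TPM and 177 and 191 TPM, and Mrap2, an accessory protein of melanocortin receptors, had 24.3 and 24.5 TPM and 7.73 and 7.21 TPM. Arhgef2 had 5.96 and 5.70 TPM and 25.8 and 26.9 TPM. Arhgef2 averaged 4.31 TPM over the WT libraries and 22.97 TPM over those of Med14 S983A, and RT1-M3-1 averaged 17.9 and 1.97 TPM. Each passed the 5 TPM minimum through 1 genotype only, so the minimum favoured a difference between the genotypes in these genes.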
